A study of Mus musculus with 6 samples.

Results

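The Rab proteins are the largest branch of the Ras-like small GTPases. A probe was taken as a member when its gene symbol on the array had the form of a Rab GTPase name, which leaves out Rab-interacting and Rab-activating proteins. This gave 52 of the 18120 gene symbols on the array, read by 78 of its 25697 probes. The name rule used no measured value, but the family was taken up because the fall of Rab7b was already known, so Rab7b is described here without a test. Rab7b itself was listed on the array under the older name 5430435G22Rik and was recognised because RefSeq keeps that name as a synonym. That search added 10 probes for 7 genes under older names, which are given apart. Rab11b is both among these 7 and among the 52, so both names together cover 58 genes.

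The samples were 3 Foxp1-transfected and 3 control samples of STHdh cells, an immortalized line derived from mouse striatum, each hybridised to 1 Illumina expression beadchip. Both groups carry the same cell line. The transfected samples are titled mFoxp1 and annotated as Foxp1-transfected, with no promoter or dose given, and the controls are titled PcDNA, the name of an expression plasmid, and annotated as wild-type. Separate cultures are not stated for the replicates. The p-values therefore cover the spread among these 6 samples alone, and that spread could be technical.

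A Rab protein cycles between a GTP-bound form on a membrane and a GDP-bound form in the cytosol, and each one marks a particular organelle or transport step. Exchange factors load GTP, GTPase-activating proteins end the active state, and effectors bind the active form to move, tether or fuse vesicles. In neurons, members of the family direct the release of synaptic vesicles, the recycling of receptors and the traffic of endosomes along axons.

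Foxp1 itself, a forkhead transcription factor, had probe intensities of 4967, 4979 and 5250 on the Foxp1 arrays, against 688, 621 and 1048 on the control arrays (log2 difference 2.62 ± 0.17 SE, limma adjusted p = 0.000472). Between 11789 and 12342 probes were detected per array at a detection p under 0.05, and the replicate 3 arrays were the brightest before normalization (median intensity 64.5 for Foxp1 and 77.0 for control, against 29.2 to 38.3 for the other arrays). Of the striatal projection neuron markers, 1 of 13 on the array (Pde10a) was detected on all 6 arrays and 9 on none, among them Drd1, Adora2a and Bcl11b. Of 10 neural progenitor markers, 5 were detected on all 6 arrays (Dlx1, Dlx2, Nes, Sox2 and Vim). The other 5 (Fabp7, Gsx2, Msi1, Pax6 and Prom1) were detected on none. Of 9 fibroblast and mesenchymal markers, 5 were detected on all 6 arrays and 4 on none. Each normalized level below is a log2 intensity after background correction and quantile normalization, each difference is Foxp1 minus control, and the levels of different probes cannot be set against each other.

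Most Rab genes were detected, and the set on the array was nearly the same in both groups. Between 55 and 57 of the 78 Rab probes were detected on each Foxp1 array and between 55 and 58 on each control array. On all 6 arrays, 54 Rab probes (69.2%) were detected, against 42.9% of all probes, and 17 Rab probes were detected on none. By gene, 37 of 52 had a probe detected on all 6 arrays. The 10 genes with no detected probe were Rab17 and Rab25, which serve traffic in epithelial cells, Rab3b and Rab3c, relatives of the synaptic vesicle protein Rab3a, and Rab2b, Rab9b, Rab19, Rab33a, Rab39 and Rab40b. Rab15 and Rab27b were detected on 1 Foxp1 array and 0 control arrays, and Rab37 and Rab38 on 1 array of each group. No Rab probe differed between the groups by 2 or more detected arrays. Of the 6 early endosome genes all passed the filter of detection on at least 3 arrays, of the 12 genes of the endoplasmic reticulum and Golgi 9 passed, of the 9 recycling endosome genes 6, of the 7 late endosome and lysosome genes 5, of the 11 secretion genes 7 and of the 7 others 5, which makes 38 tested genes on 55 probes.

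Among the 38 tested Rab genes, Rab36, Rab3d and Rab4b fell with Foxp1, 0 rose and 35 did not pass an adjusted p of 0.05 with limma. Over all 8789 genes tested, 1.24% fell and 1.59% rose. By probe, 3 of the 55 kept Rab probes passed, against 2.7% of all kept probes. The median Rab difference was -0.08, against -0.00199 over all genes, with 27 Rab genes below 0 and 11 above. Over all genes tested, 4442 lay below 0 and 4347 above. At an unadjusted p under 0.05, 8 Rab genes were lower and 1 was higher (10.2% and 8.26% of all genes). The 3 Foxp1 arrays lay below all 3 control arrays for 10 of the 38 genes, against 14.1% of all genes, and above them for 3, against 11.7%. These are counts of a family chosen with results known, and 36 of the 38 genes differed by less than 1.5-fold.

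**Figure D1:**
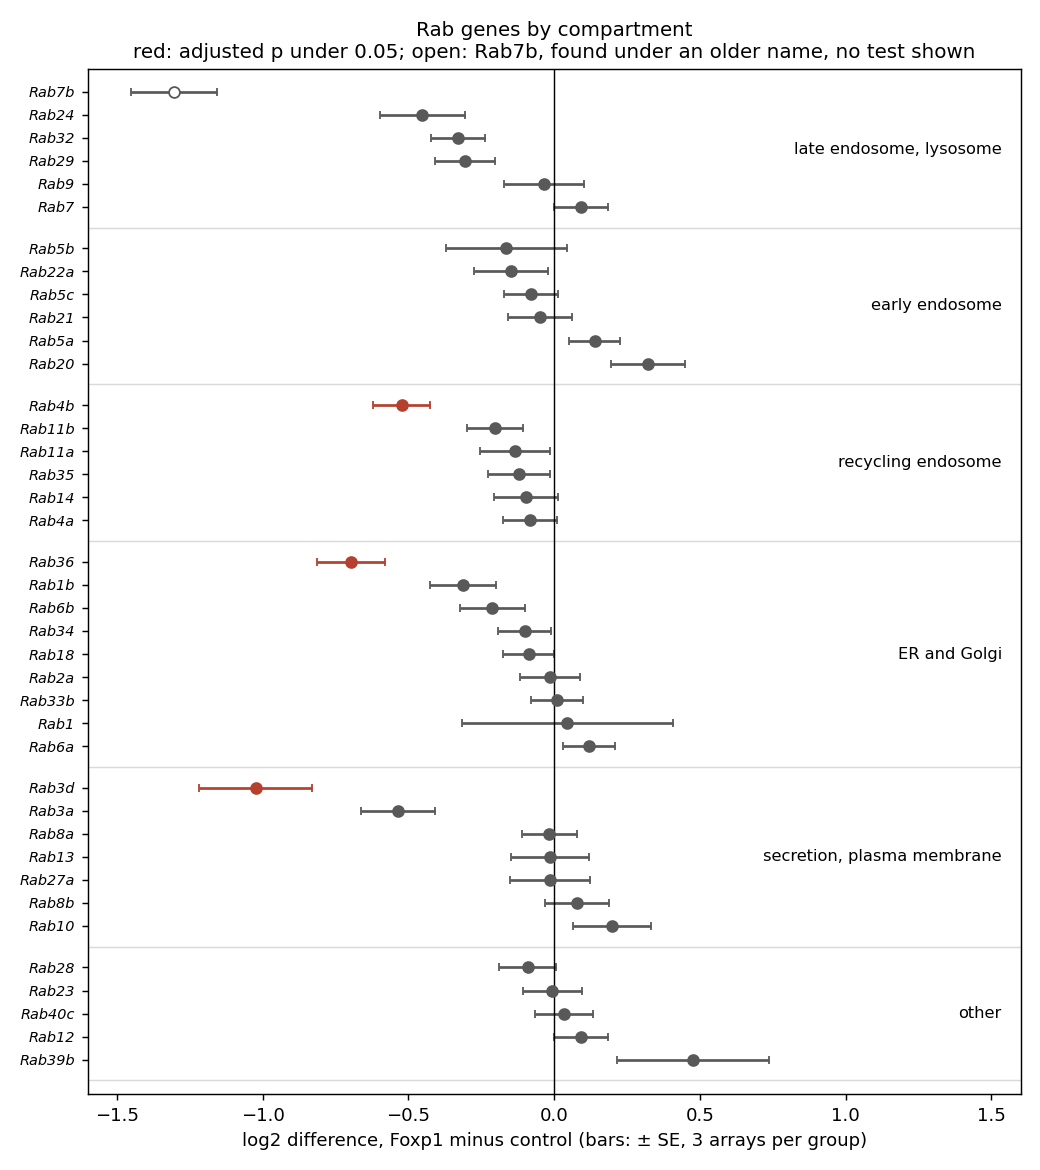
Log2 difference (Foxp1 minus control, horizontal axis) of the 38 tested Rab genes, grouped by the compartment of the protein, with Rab7b as an open point; points are fitted differences and bars ± SE from 3 arrays per group. Red points mark Rab4b, Rab36 and Rab3d, the genes past an adjusted p of 0.05, at -0.52, -0.70 and -1.02.

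Rab7b works on late endosomes, lysosomes and the trans-Golgi network, and in macrophages it is known to damp signalling by the Toll-like receptors TLR4 and TLR9. Its probe had deposited intensities of 62.8, 61.3 and 155 on Foxp1 arrays 1 to 3, against 173, 177 and 349.8 on control arrays 1 to 3. The normalized level was 6.46, 6.43 and 6.95 on the Foxp1 arrays, against 7.95, 7.97 and 7.83 on the control arrays. The groups did not overlap, all 6 arrays detected the probe, and Foxp1 replicate 3 was the highest of the Foxp1 arrays. The mean was 6.61 ± 0.29 in Foxp1 cells and 7.92 ± 0.08 in controls (SD, n = 3 each), a difference of -1.30 ± 0.15 (SE) or 2.47-fold lower. This is the difference that brought the family into view, so no test is attached to it. Rab7b had 1 probe on the array.

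Rab7 is the main Rab of late endosomes and lysosomes, where it drives their maturation and fusion, and it is the closest named relative of Rab7b. Its probe with the highest mean had levels of 12.64, 12.68 and 12.75 on the Foxp1 arrays, against 12.68, 12.54 and 12.57 on the control arrays. The groups overlapped, and the difference was 0.09 ± 0.09 (limma adjusted p = 0.645). The other 2 Rab7 probes differed by 0.02 ± 0.23 and -0.14 ± 0.16, also with overlapping groups. Taken array by array, the log2 level of Rab7b minus that of Rab7 was lower on the Foxp1 arrays, with a difference of -1.40 ± 0.15 (SE) for the first Rab7 probe, -1.33 ± 0.29 for the second and -1.16 ± 0.29 for the third, given as a description because the pair was named with the fall of Rab7b known.

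**Figure D2:**
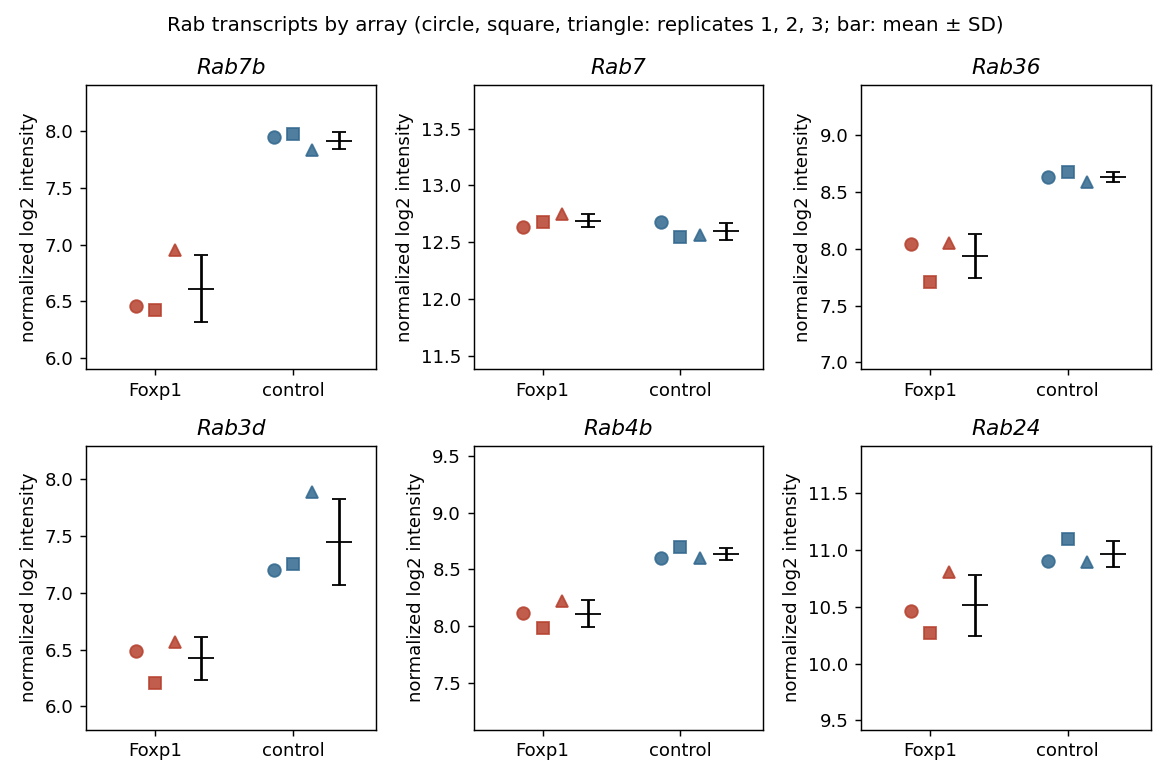
Normalized log2 intensity (vertical axis, a span of 2.5 in each panel) of 6 Rab genes on the 3 Foxp1 and 3 control arrays; symbols give the replicate number and bars the mean ± SD. The Foxp1 arrays lie below the control arrays for Rab7b, Rab36, Rab3d, Rab4b and Rab24, while for Rab7 the groups overlap.

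The remaining late endosome and lysosome genes were Rab24, Rab32, Rab29 and Rab9. Rab24, known for a part in autophagy, had levels of 10.46, 10.27 and 10.80 on the Foxp1 arrays, against 10.90, 11.10 and 10.90 on the control arrays. Its groups did not overlap, but the difference of -0.45 ± 0.15 did not pass (limma adjusted p = 0.158). The other 2 Rab24 probes gave -0.49 ± 0.12 (adjusted p = 0.0752) and -0.33 ± 0.12 (0.204), so all 3 probes of the gene were lower on each Foxp1 array than on any control array. Rab32, which sorts cargo to melanosomes and other lysosome-related organelles, had levels of 11.83, 11.70 and 11.76 with Foxp1, against 12.03, 12.06 and 12.18 in controls (-0.33 ± 0.09, adjusted p = 0.121). Rab29, listed as Rab7l1 and known for recruiting the kinase LRRK2 to membranes, had levels of 8.88, 9.06 and 9.03 with Foxp1, against 9.35, 9.17 and 9.38 in controls (-0.31 ± 0.10, adjusted p = 0.172). Neither pair of groups overlapped and neither gene passed. Rab9, which returns mannose 6-phosphate receptors to the Golgi, had its groups overlapping at -0.04 ± 0.14 (adjusted p = 0.927), and its second kept probe gave 0.25 ± 0.11. The median of the 5 tested members was -0.31, with 0 past the threshold.

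Of the genes for secretion, the Rab3 members stood lowest. Rab3d, found on secretory granules of exocrine cells and mast cells, had levels of 6.49, 6.21 and 6.57 on the Foxp1 arrays, against 7.20, 7.25 and 7.88 on the control arrays. The groups did not overlap, and control replicate 3 was the highest of all. The means were 6.42 ± 0.19 and 7.45 ± 0.38 (Foxp1 and control, SD, n = 3 each), and the gene fell by 1.02 ± 0.19 (SE), or 2.03-fold (limma adjusted p = 0.0368), the only tested Rab gene by the array's own symbols with a difference of 2-fold or more. Of the 6 fits without 1 array, only the one without control replicate 3 kept this call (-0.80, limma adjusted p = 0.0274), and in the other 5 the adjusted p reached up to 0.165. Rab3a, the abundant Rab of synaptic vesicles, had levels of 7.48, 7.60 and 7.57 with Foxp1, against 8.13, 8.28 and 7.84 in controls. Its groups did not overlap, and its difference of -0.53 ± 0.13 did not pass (adjusted p = 0.0756), though it did without control replicate 3 (-0.66, adjusted p = 0.0243). Rab10 and Rab8b, which carry vesicles to the plasma membrane, differed by 0.20 ± 0.13 (adjusted p = 0.479) and 0.08 ± 0.11 (0.758). The median of the 7 tested members was -0.02.

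Rab4b, which sends cargo from early endosomes back to the cell surface, had levels of 8.12, 7.99 and 8.22 on the Foxp1 arrays, against 8.60, 8.69 and 8.60 on the control arrays. The groups did not overlap, and the gene fell by 0.52 ± 0.10 (SE), or 1.44-fold (limma adjusted p = 0.0374). Its paralogue Rab4a had levels of 9.89, 9.75 and 9.89 with Foxp1, against 9.94, 9.88 and 9.96 in controls, which overlapped (-0.08 ± 0.09, adjusted p = 0.681). Whether the 2 paralogues differ in their response was not tested. Rab11b, a Rab of the recycling endosome, did not pass at -0.20 ± 0.10 (adjusted p = 0.32), nor did Rab35, which acts in fast recycling, at -0.12 ± 0.11 (0.597). All 6 tested recycling genes lay below 0, with a median of -0.13, as did 4442 of all 8789 genes tested. The groups did not overlap for 2 of the 6, Rab4b and Rab11b, against 14.1% of all genes on the lower side.

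Among the genes of the endoplasmic reticulum and Golgi, Rab36, a Golgi Rab that with its relative Rab34 binds the lysosome adaptor RILP, had levels of 8.04, 7.71 and 8.05 on the Foxp1 arrays, against 8.63, 8.68 and 8.59 on the control arrays. The groups did not overlap, and Foxp1 replicate 2 was the lowest of all. Rab36 fell by 0.70 ± 0.12 (SE), or 1.62-fold (limma adjusted p = 0.0252). Rab34 differed by -0.10 ± 0.09 (adjusted p = 0.604) with overlapping groups. Rab1b, which acts between the endoplasmic reticulum and the Golgi, had levels of 10.66, 10.63 and 10.71 with Foxp1, against 11.19, 10.90 and 10.85 in controls, and did not pass (-0.31 ± 0.11, adjusted p = 0.203), and its other kept probe gave -0.06 ± 0.09. Rab6b, a neuronal form of the Golgi Rab6, differed by -0.21 ± 0.11 (0.363), Rab6a by 0.12 ± 0.09 (0.517) and Rab2a, of the early secretory pathway, by -0.01 ± 0.10 (0.964). The median of the 9 tested members was -0.09.

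The early endosome genes held 0 calls, with a median of -0.06 over 6 tested members. Rab20, linked to the maturation of endosomes and phagosomes, had levels of 6.82, 7.02 and 6.67 on the Foxp1 arrays, against 6.65, 6.54 and 6.36 on the control arrays. It was higher on each Foxp1 array than on any control array, by 0.32 ± 0.13, without passing (limma adjusted p = 0.231). Rab5a, which drives fusion of early endosomes, differed by 0.14 ± 0.09 (adjusted p = 0.446) and by 0.19 ± 0.09 on its second probe, against -0.08 ± 0.09 (0.699) for Rab5c. Rab22a differed by -0.15 ± 0.13 (0.588). Rab5b was detected on 2 Foxp1 and 3 control arrays, with overlapping levels (-0.16 ± 0.21, adjusted p = 0.725). Of the 5 genes with other or less settled places, Rab39b, a neuronal Rab, had the highest difference of the 38 (0.48 ± 0.26, adjusted p = 0.381), with levels of 6.57, 7.44 and 7.29 on the Foxp1 arrays overlapping those of 6.21, 6.67 and 6.98 on the control arrays. Foxp1 was higher in all 3 same-numbered pairs, and with the replicate number as a block the gene still did not pass (0.48 ± 0.12, limma adjusted p = 0.084). Rab12, which takes part in the degradation of transferrin receptors, differed by 0.09 ± 0.09 (0.644) and Rab28, a Rab of photoreceptor outer segments and cilia, by -0.09 ± 0.10 (0.67).

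Several probes of 1 gene give a check within the array, since they read the same RNA samples at different places of a transcript. Of the 38 tested genes, 13 had more than 1 kept probe, and in 5 of these, Rab6a, Rab7, Rab9, Rab28 and Rab34, the probes differed in sign. None of the probes of these 5 genes passed. Rab6a spanned the widest range of them, with 0.12 ± 0.09, 0.42 ± 0.17 and -0.13 ± 0.13. In Rab13, a Rab of tight junctions, 1 probe gave -0.46 ± 0.16 and the other -0.02 ± 0.13. Rab36, Rab3d and Rab4b each had 1 probe, so their falls have no second probe beside them.

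**Figure D3:**
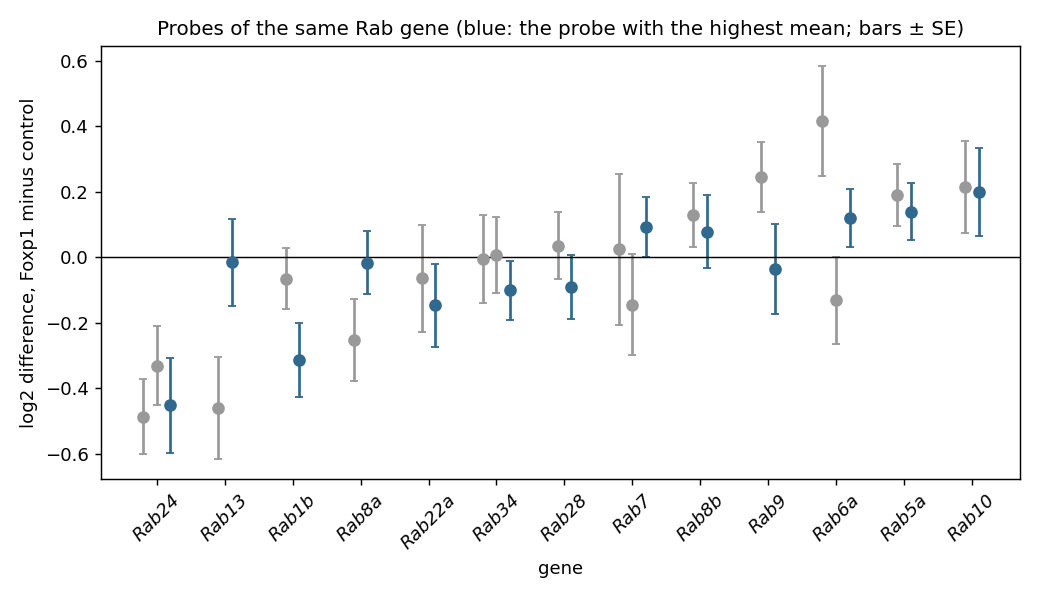
Log2 difference (Foxp1 minus control, vertical axis) of each kept probe of the 13 Rab genes with more than 1, with bars of ± SE; blue points are the probes with the highest mean, which stand for the gene. All 3 Rab24 probes lie between -0.49 and -0.33, while Rab6a, Rab7, Rab9, Rab28 and Rab34 have probes on both sides of 0.

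The promoter sequences of the Rab genes that fell are shown because the transfected protein binds DNA, with the promoter of Rab7 beside them as a gene that did not pass. They are RefSeq sequences of build GRCm38.p6, from 250 bases before to 50 after an annotated start and written 5′ to 3′ in the direction of the gene. RefSeq entries were matched for 44 of the 52 genes. Rab7b and Rab36 are named only. Capitals mark matches on either strand to the letters TGTTT (the short core of a forkhead site), CCAAT (the CCAAT box) or GGGCGG (the GC box).
Rab3d, minus strand of chr9:21918134-21918433: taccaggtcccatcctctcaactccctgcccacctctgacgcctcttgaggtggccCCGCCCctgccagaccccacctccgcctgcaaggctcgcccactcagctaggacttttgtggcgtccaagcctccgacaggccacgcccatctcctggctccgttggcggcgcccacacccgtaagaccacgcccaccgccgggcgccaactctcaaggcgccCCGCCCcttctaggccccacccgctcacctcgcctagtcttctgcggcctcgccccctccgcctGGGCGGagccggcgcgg
Rab4b, minus strand of chr7:27178834-27179133: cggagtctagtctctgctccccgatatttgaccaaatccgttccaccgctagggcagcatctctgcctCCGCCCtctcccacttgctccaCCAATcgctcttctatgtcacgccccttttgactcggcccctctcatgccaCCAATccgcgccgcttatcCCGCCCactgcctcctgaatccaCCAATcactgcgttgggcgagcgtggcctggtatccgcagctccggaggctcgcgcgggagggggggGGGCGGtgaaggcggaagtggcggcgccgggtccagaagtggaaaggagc
Rab7, minus strand of chr6:88045221-88045520, the upstream one of its 2 annotated starts: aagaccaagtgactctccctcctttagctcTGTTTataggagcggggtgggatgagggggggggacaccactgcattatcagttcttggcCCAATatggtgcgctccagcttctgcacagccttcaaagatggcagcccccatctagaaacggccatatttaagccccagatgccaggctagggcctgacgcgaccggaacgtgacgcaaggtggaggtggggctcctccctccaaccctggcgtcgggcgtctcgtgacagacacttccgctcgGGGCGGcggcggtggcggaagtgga

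The Rab3d window held 3 GC boxes and no CCAAT box, the Rab4b window 3 GC boxes and 3 CCAAT boxes, and the Rab7 window 1 of each. The TGTTT core occurred once, in the Rab7 window, and the longer core TGTTTAC, which contains it, in none of the 3. Over all 32851 promoter windows of this length, 50.5% held TGTTT, 3.65% TGTTTAC, 37.4% CCAAT and 35.7% GGGCGG. Over the 53 windows of the matched Rab genes, these shares were 34%, 1.89%, 43.4% and 66%. No motif match is a measured binding site, and no match says only that these letters are not in this window.

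Of the 7 genes found under older array names, 4 were tested: Rab7b, Rab31, Rab43 and Rab30. Rab31, of the trans-Golgi network and endosomes and listed as 1700093E07Rik, differed by -0.15 ± 0.11 (limma adjusted p = 0.498), Rab43, a Golgi Rab listed as 1810048P08Rik, by 0.16 ± 0.11 (0.48) and Rab30, a Golgi Rab listed as Rsb30, by 0.26 ± 0.15 (0.42). The groups of all 3 overlapped. Rab42, Rab44 and the older-named probe of Rab11b (A730055L17Rik) were detected on 0 arrays.

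The machinery that acts on Rab proteins gave 1 call in the fit without the replicate pairs. Of 137 listed genes 98 were tested, and 1 rose and 0 fell, against 2.83% of all genes in either direction. The gene that rose was Tbc1d2, a GTPase-activating protein for Rab7, listed as A630005A06Rik. It had levels of 10.00, 9.98 and 10.05 on the Foxp1 arrays, against 9.53, 9.61 and 9.59 on the control arrays. The groups did not overlap, and Tbc1d2 rose by 0.44 ± 0.09 (SE), 1.35-fold (limma adjusted p = 0.0445). With the replicate number as a block its call was lost (adjusted p = 0.0514), while 3 other genes passed, 2 higher and 1 lower. Dropping any single array lost the call too (limma adjusted p between 0.0529 and 0.168 over 6 such fits).

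By role, the 29 tested GTPase-activating proteins included that 1 call, and the other 4 machinery lists had 0. Another of the 29, Tbc1d10b, differed by 0.53 ± 0.12 with groups that did not overlap, and did not pass (limma adjusted p = 0.0578). Tbc1d10b passed with detection on all 6 arrays, with the replicate block, with array weights and with probes averaged per gene. Rabgap1l went the other way without passing (-0.39 ± 0.10, limma adjusted p = 0.0989), also with groups that did not overlap. At an unadjusted limma p under 0.05, 3 of the 29 were lower and 3 were higher, against 10.2% and 8.26% of all genes. Of 20 tested exchange factors, Hps1, part of the complex that activates Rab32 and Rab38, had levels of 6.31, 6.44 and 6.78 with Foxp1, against 6.97, 7.18 and 7.25 in controls. Its groups did not overlap and it did not pass (-0.62 ± 0.14, limma adjusted p = 0.0677). Hps1 passed in 4 of 16 alternatives. These were the replicate block (limma adjusted p = 0.0299), array weights, the fit without both replicate 3 arrays and the fit without Foxp1 replicate 3. Dennd2c, an exchange factor for Rab9, differed by 0.32 ± 0.11 (0.165). Of 26 tested effectors, Sytl2 and Mlph differed by -0.28 ± 0.09 (0.164) and -0.51 ± 0.20 (0.226). At an unadjusted limma p under 0.05, 3 effectors were lower and 3 were higher, against 10.2% and 8.26% of all genes. The 3 higher ones were Rabep1 (0.25 ± 0.09), Appl1 (0.23 ± 0.09) and Sytl3 (0.36 ± 0.14). The 3 lower ones were Sytl2, Mlph and Rabep2 (-0.24 ± 0.10). Of 7 genes for lipid attachment and membrane recycling of Rab proteins, Rabggtb, a subunit of the enzyme that adds the lipid, differed by 0.19 ± 0.12 (0.444) and Rabif, a chaperone of nucleotide-free Rab proteins, by -0.13 ± 0.10 (0.527). Of 16 genes of HOPS, CORVET and retromer, which tether endosomes or sort cargo from them, Snx5 differed by 0.72 ± 0.22 (adjusted p = 0.148, and 0.0433 with the replicate block) and Vps26b by 0.21 ± 0.13 (0.444).

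Rab7b is best known from macrophages, so the macrophage and microglia markers are given beside its fall. Of the 11 on the array, Cd68 and Tmem119 were detected on all 6 arrays and 8 on none, among them Aif1, Csf1r, Itgam and Ptprc. Deposited intensities of the list, summed per array without normalization and with undetected genes included, lay between 183 and 357 on the Foxp1 arrays. On the control arrays the sums lay between 350.04 and 752. Most of the list was undetected, so the sum does not describe these markers as a whole. Of the list's 2 tested genes 1, Tmem119, fell, against 1.24% of all genes tested. The part of these markers in the fall of Rab7b was not tested.

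The calls of Rab36, Rab3d and Rab4b depended on which arrays were used. Each was lost in the 5 fits without any 1 of the Foxp1 arrays, control replicate 1 or control replicate 2, with limma adjusted p of up to 0.106, 0.165 and 0.172, and each held without control replicate 3. Those fits use 5 arrays in place of 6. The difference itself stayed between -0.76 and -0.58 for Rab36, between -1.14 and -0.80 for Rab3d and between -0.58 and -0.46 for Rab4b. The difference of Rab7b lay between -1.47 and -1.22 in the same 6 fits.

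**Figure D4:**
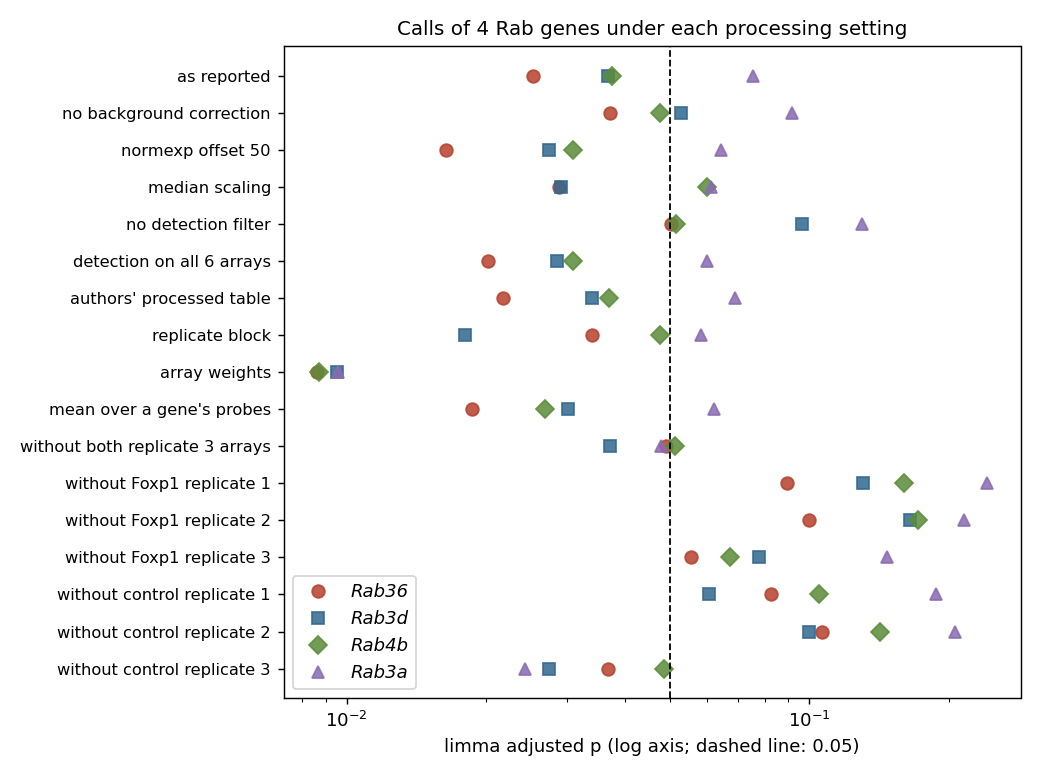
Adjusted p from limma (horizontal axis, log scale, dashed line at 0.05) of Rab36, Rab3d, Rab4b and Rab3a under each processing setting (vertical axis). Leaving out 1 Foxp1 array, control replicate 1 or control replicate 2 puts all 4 genes to the right of the line, while array weights put all 4 to the left.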

How the data were processed

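Per the file headers, the deposited values are linear probe intensities, each with its detection p-value, for 25697 probes on 6 arrays. The submitters' processing notes name GenomeStudio, without a version. Between 29.5% and 31.6% of the intensities per array were below 0, values that arise only once a background has been subtracted, before deposit. The authors' processed values, deposited separately, were read as log2 because each column tracked the log2 intensities of its own array (r between 0.922 and 0.975 after centring each probe, at most 0.423 for any other column). The normalization of these values is not named in the sources used here. All 6 columns had the same upper quartile, 9.0636, and medians between 6.3211 and 6.3242. The processed values served as an alternative.

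Intensities were corrected with the normal-exponential model of neqc (limma 3.58.1 in R 4.3.3; background inferred from the detection p-values, offset 16), quantile-normalized and log2-transformed. A probe was kept if 3 or more arrays detected it at p under 0.05 (12136 probes). Groups were compared with limma (lmFit and eBayes, 2-sided), adjusting by Benjamini-Hochberg across the kept probes and a threshold of 0.05. A gene was its kept probe with the highest mean, which gave 8789 genes. The fit was tested on simulated data. An added offset shrinks the differences of dim probes. Arrays give no counts, so their number limits the precision.

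Symbols were updated through RefSeq synonyms (assembly GRCm38.p6, names only): the symbol was current for 17548 probes, a synonym of 1 gene for 7082, of several for 116 and of none for 924, and 27 symbols altered by a spreadsheet were left unnamed. Probe sequences were not used here, so cross-hybridisation between Rab paralogues was not tested. Members, compartment groups, machinery and marker lists were chosen with earlier results of these data known. Named genes were Rab7b and Rab7, Rab genes past the threshold, in each compartment the 3 with the smallest p and the 1 with the highest mean, genes whose probes differ in sign, and from each machinery list the calls or, with none, the 2 with the smallest p. Other named genes were chosen after their values were seen.

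Replicate numbers 1 to 3 come from the sample titles. After subtracting group means, arrays with the same number had r = 0.257, 0.115 and 0.401. All exceed 0.1, the bar set for reading the numbers as pairs. The reported p-values come from the fit without the pairs, and the fit with the replicate number as a block is an alternative, quoted as such where it is given. Rab36, Rab3d and Rab4b passed in both fits, while the machinery calls differed between them. Foxp1 array 2 had a higher r with control array 1 (0.151). Alternatives changed the background correction, normalization, detection filter, value table, array weights, probe rule, replicate block and the arrays used. The setting with no background correction added none to that made before deposit, and it set intensities under 16 to 16.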

Additional observations from a re-analysis of the deposited data

How the results depend on the processing

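With the replicate block 342 genes passed over the whole table and the same 3 Rab genes fell; Hps1, Snx5 and Tbc1d10b gained a call and Tbc1d2 lost its own, and no other call of a Rab or machinery gene changed. The machinery count of 1 was 0 with no background correction and with median scaling, 2 with detection on all 6 arrays and with probes averaged per gene, 3 with the replicate block and 5 with array weights. Without the detection filter 165 genes passed over the whole table and 0 Rab genes did. The limma adjusted p was 0.0502 for Rab36, 0.0515 for Rab4b and 0.0963 for Rab3d, and the median over 52 Rab genes was -0.031. More probes are adjusted over in that fit. The unadjusted limma p moved too, from 0.000332 to 0.000417 for Rab36, 0.000712 to 0.00175 for Rab3d and 0.000752 to 0.000454 for Rab4b. Array weights gave 758 genes and 5 Rab genes, all lower, adding Rab24 and Rab3a. Without both replicate 3 arrays 163 genes passed, Rab4b was lost (0.0511) and Rab3a passed (0.0477). Rab3d was lost with no background correction (0.0528) and Rab4b with median scaling (0.06). Rab7b minus Rab7 was -1.15 with an offset of 50 and -1.20 with the authors' processed table, against -1.40; a larger offset shrinks differences of dim probes by construction. In the 6 fits without 1 array, the whole-table count ran from 28 to 266, the Rab count from 0 to 4, the machinery count from 0 to 1, the Rab median from -0.11 to -0.06, Rab7b minus Rab7 from -1.54 to -1.31, Foxp1 from 2.51 to 2.79 and the number of Rab probes detected on all arrays from 54 to 55. The causes of the lost calls were not tested beyond these constructions. Detection at p under 0.01 left 48 Rab probes detected on all 6 arrays. Of 103 comparison values under an alternative, 74 kept their direction and side of the threshold or, for counts, stayed within 1.5 times, 20 were weaker, 6 stronger, 3 moved and 0 reversed. With the detection filter, the 10 Rab genes detected on no array had no comparison, nor had Rab15, Rab27b, Rab37 and Rab38.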
